A study of Mus musculus with 12 samples.

Results

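The cells described here are non-immune cells caught in the division cycle, from mouse samples, tumours among them, of lines labelled SCC35. They were chosen by their RNA. A cell entered if it carried at least 4 unique molecular identifiers (UMIs, 1 per captured RNA molecule) of Mki67 and Top2a together, no UMI of Ptprc, Cd3e, Pecam1 or Krt5, and at most 1 of Tyrobp. It also needed at least 300 genes, at most 15% mitochondrial UMIs and 1 clear hashtag, meaning a top hashtag of at least 20 counts and at least 3 times the second. Of 176381 barcodes in 6 libraries, 163866 passed the cell filters and 116375 of these had 1 hashtag. Among those, 78972 were non-immune and 15064 were cycling, which is 19.1% of the non-immune cells. The comparison cells are 43131 non-immune cells with no UMI of Mki67 or Top2a, and the 20777 cells with 1 to 3 UMIs lie between and were left out. Cells with at least 4 UMIs were 19072 over all cell types, and 79.0% of them were in the non-immune gate.

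The study followed 2 control lines, 15 and 18, and 2 lines labelled as Mif knockout (KO), 19 and 24, at days 0, 6, 10 and 16. Every sample carries the SCC35 label, and the series' title names melanoma rejection. A tumour here is 1 hashtag of a deposited sheet, which gives its line, day and a letter. The word is used for day 0 as well, although those cells may not come from a tumour. Letters A and B sat in the library of their own line, and letter C in 1 of 2 libraries that mixed lines. Cells were assigned to 21 control tumours, 21 KO tumours and 3 tumours marked WT, which belong to no group. The labels give the hosts neither genotype nor strain nor age, do not say what day 0 was, and do not say where in Mif the deletion lies. Each line is a single line, so group and line are nested. Nothing says that tumours of 1 line came from separate animals, so p-values over tumours measure the spread between these samples, which may be technical.

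Dividing cells pass through DNA replication (S phase), a gap (G2) and mitosis (M), and each step has its own genes. E2F factors drive the replication genes, among them the Mcm helicase, which is loaded on DNA before S phase, and the enzymes that make nucleotides. The MuvB complex with B-Myb and FoxM1 drives the later genes for cyclin B, the spindle and the chromosome motors. Mki67 coats mitotic chromosomes and Top2a untangles DNA, and both peak in G2 and M, so a gate on them leans towards late cycle. Ube2c, the ubiquitin-conjugating enzyme of the anaphase-promoting complex, and Aurkb, the kinase of the chromosomal passenger complex, were not in the gate. Mif is a secreted cytokine that binds Cd74.

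The promoters of 6 genes are shown with the letter patterns for which these programmes are known. Each sequence is the 150 bases before the start of the gene in RefSeq on GRCm38.p6, written 5′ to 3′ on the gene's strand, with capitals marking TTTGAA (the CHR element of late genes), CCAAT or TTTNNCGC (an E2F letter pattern) on either strand, overlaps merged. Ube2c (chr2:164769779-164769928, plus strand), Cdc20 (chr4:118437344-118437493, minus strand), Ccnb2 (chr9:70421555-70421704, minus strand) and Cdk1 (chr10:69352913-69353062, minus strand) act in G2 and mitosis. Mcm6 (chr1:128359706-128359855, minus strand) and Mcm5 (chr8:75109359-75109508, plus strand) are helicase subunits. The Ccnb2 stretch holds CCAAT but no TTTGAA.
Ube2c: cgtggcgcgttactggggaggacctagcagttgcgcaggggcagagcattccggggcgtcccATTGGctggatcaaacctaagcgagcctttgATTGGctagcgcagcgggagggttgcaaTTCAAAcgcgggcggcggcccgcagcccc
Cdc20: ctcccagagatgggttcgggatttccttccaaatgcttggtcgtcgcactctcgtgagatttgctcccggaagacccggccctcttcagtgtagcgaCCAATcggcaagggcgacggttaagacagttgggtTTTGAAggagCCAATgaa
Ccnb2: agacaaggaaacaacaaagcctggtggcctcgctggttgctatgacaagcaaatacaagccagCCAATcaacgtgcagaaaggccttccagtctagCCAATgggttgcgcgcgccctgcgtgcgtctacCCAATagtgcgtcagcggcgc
Cdk1: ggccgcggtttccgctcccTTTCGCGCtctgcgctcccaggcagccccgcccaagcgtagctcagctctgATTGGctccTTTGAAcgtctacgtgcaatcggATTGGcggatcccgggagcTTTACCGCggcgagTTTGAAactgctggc
Mcm6: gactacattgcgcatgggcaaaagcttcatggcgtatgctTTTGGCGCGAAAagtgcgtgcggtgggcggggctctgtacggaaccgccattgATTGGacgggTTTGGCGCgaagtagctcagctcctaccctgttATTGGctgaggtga
Mcm5: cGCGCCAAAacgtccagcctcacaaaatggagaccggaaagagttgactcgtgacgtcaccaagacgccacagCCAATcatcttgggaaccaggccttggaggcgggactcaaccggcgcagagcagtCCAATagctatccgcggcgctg
A match is a description of these letters and shows no binding. The shares that follow were counted over each gene's whole promoter entries, which are longer than the 150 bases shown. TTTGAA was in 68.9% of the 45 matched genes of the G2/M list and in 19.4% of the 31 matched genes of the S list. Over all 27025 genes with a promoter entry it was in 20.2%. TTTNNCGC was in 11.1% of the G2/M genes, in 45.2% of the S genes and in 5.93% of all genes. CCAAT was in 75.6%, 71.0% and 41.1%.

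The gate was checked on genes it did not use. At least 1 UMI of Ube2c or Aurkb was found in 89.0% of the cycling cells and in 12.8% of the non-cycling ones. Just outside the threshold, 64.6% of the 2876 cells with 3 UMIs carried one, and just inside it, 74.0% of the 2005 cells with 4 UMIs did. The edge is thus gradual, and 6991 of the cycling cells lay well inside it with 10 UMIs or more. Depth moves with the gate, since the median cell held 12474 UMIs among cycling and 5019 among non-cycling cells. Doublets of 2 cells of 1 tumour carry 1 hashtag and remain, and their part was not tested.

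Libraries held 151385933 to 239699029 gene UMIs. Barcodes found in more than 1 library were 13716 of 149440 passing barcodes and 135 of 14929 cycling ones. Markers of other cells that the gate did not use were mostly lower in cycling than in non-cycling cells. The highest were 7 fibroblast genes, with a summed median of 197 CPM (UMIs scaled to a fixed total per tumour; 6.96 to 653) in control and 209 (34.9 to 394) in KO tumours, against 876 and 610 in non-cycling cells. The summed level of 7 macrophage markers had a median of 35.2 CPM (10.3 to 72.9) in control and 25.3 (8.44 to 80.0) in KO tumours, against 104 and 111 in non-cycling cells. The 6 T cell genes summed to 19.2 (0.959 to 168) and 10.6 (1.23 to 26.9). Endothelial genes summed to 9.55 (6.49 to 17.7) and 24.2 (10.0 to 48.1). Of the 7 melanocyte markers, the pigment genes Tyr, Dct and Tyrp1 were at 0 in the cycling cells of both groups and Mlana was at 0 in control. The list summed to a median of 12.5 in control and 9.84 in KO. Keratinocyte genes other than Krt5 summed to a median of 0.174 in control and 0.541 in KO, with Krt1 at 0. The gate asked for no UMI of Krt5, so low keratinocyte genes cannot show whether that lineage is absent. The melanocyte genes Mitf, Pmel and Sox10 were detected in both groups. No lineage is assigned here, and the cells are called by their gate.

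Mif itself checks the labels. Its level in cycling cells was 1636, 2065 and 2970 CPM (lowest, median and highest) in 21 control tumours and 38.7, 290 and 1199 in the 20 KO tumours with at least 20 cycling cells. The groups did not overlap. Within KO, the libraries that mixed lines stood apart. Line 19 read 38.7 to 68.0 CPM of Mif in its own library and 423, 443 and 445 in the mixed one, and line 24 read 155 to 336 and then 1108, 1199 and 1132. Mif fell by 2.65 on the log2 scale (SE 0.36, edgeR quasi-likelihood adjusted p = 2.6e-07), and by 1.13 in the mixed libraries alone, where it did not pass (adjusted p = 0.0904). Near-identical pseudogene copies of Mif exist in the mouse genome, so reads split between them cannot be told apart. The part of free RNA and of cells given the wrong hashtag in the KO values of Mif was not tested. Mif fell past the threshold too with a top hashtag of at least 5 times the second.

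Within every tumour the cycling cells carried a large late-cycle programme. Since the gate defines this contrast, it is described without a test. CPM were compared as log2(CPM + 1) in the 44 tumours with at least 20 cells of each kind. The largest differences were in Aurkb, with a median over tumours of 75.6 CPM in cycling and 1.82 in non-cycling cells (4.73 on the log2 scale), and in Ube2c, with 663 and 29.3 CPM (4.29). Then came the spindle motor Kif11 (108 and 5.30 CPM), cyclin A, encoded by Ccna2 (271 and 14.9 CPM), and the spindle pole protein Aspm (4.15). Cenpf of the kinetochore (390 and 21.3 CPM), cyclin B1, encoded by Ccnb1 (135 and 6.01 CPM), and Nusap1, a microtubule bundler (70.3 and 2.83 CPM), were next. The mitotic kinase Plk1 (85.9 and 4.05 CPM) and the kinase Pbk (104 and 5.51 CPM) closed the 10. All 10 were higher in 44 of 44 tumours.

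The members of each list are given by how many lay past 2-fold, where 4.91% of 8434 genes were past 2-fold higher and 2.88% lower. All 13 mitotic kinesins were past it, with a median of 3.71. So were 17 of 18 spindle checkpoint and anaphase-promoting complex genes (median 3.52) and 50 of 52 G2/M genes (3.14). Replication genes came lower, with 31 of 39 S genes (1.65) and 13 of 17 licensing and helicase genes (1.31). The median of all genes was 0.00. Cyclins and their kinases were mixed, with 9 of 16 past 2-fold. Ccnd2, encoding cyclin D2, which acts early in the cycle, was lower in cycling cells in all 44 tumours (-0.75), whereas Ccnd1 was at 0.55. Of 19 histone genes 15 were past 2-fold higher. Hist1h2bc was lower (-1.30, higher in 0 of 44 tumours), and counts of these near-identical genes may be split between copies.

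Genes low in cycling cells were led by matrix genes, 15 of 18 of which were past 2-fold lower (median -1.50). Ogn, the proteoglycan osteoglycin, was at 22.4 CPM in cycling and 102 in non-cycling cells (-2.26). The microfibril gene Mfap5 was at 3.48 and 20.9 CPM (-2.06), and the matrix protein gene Thbs1 at 162 and 408 CPM (-1.35). Among the others of the 10 lowest were Fbxo32, a ubiquitin ligase subunit of atrophy (-1.86), the peptidase Mme (-1.67), Mxd4, an antagonist of Myc (-1.64), ceruloplasmin, encoded by Cp (-1.53), the Fc receptor Fcgrt (-1.52) and the histone demethylase Kdm5b (-1.41). Each of these named genes was lower in 44 of 44 tumours. When cycling cells were compared with non-cycling cells matched in depth, 381 genes were past 2-fold higher and 116 lower, against 414 and 243 before. Ogn then stood at -1.66, Thbs1 at -0.99, Cp at -0.97 and Aurkb at 4.91. Fibroblast markers had a median summed level of 197 CPM in cycling and 876 in non-cycling cells of control tumours, and their part in the lower matrix levels was not tested.

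**Figure D1:**
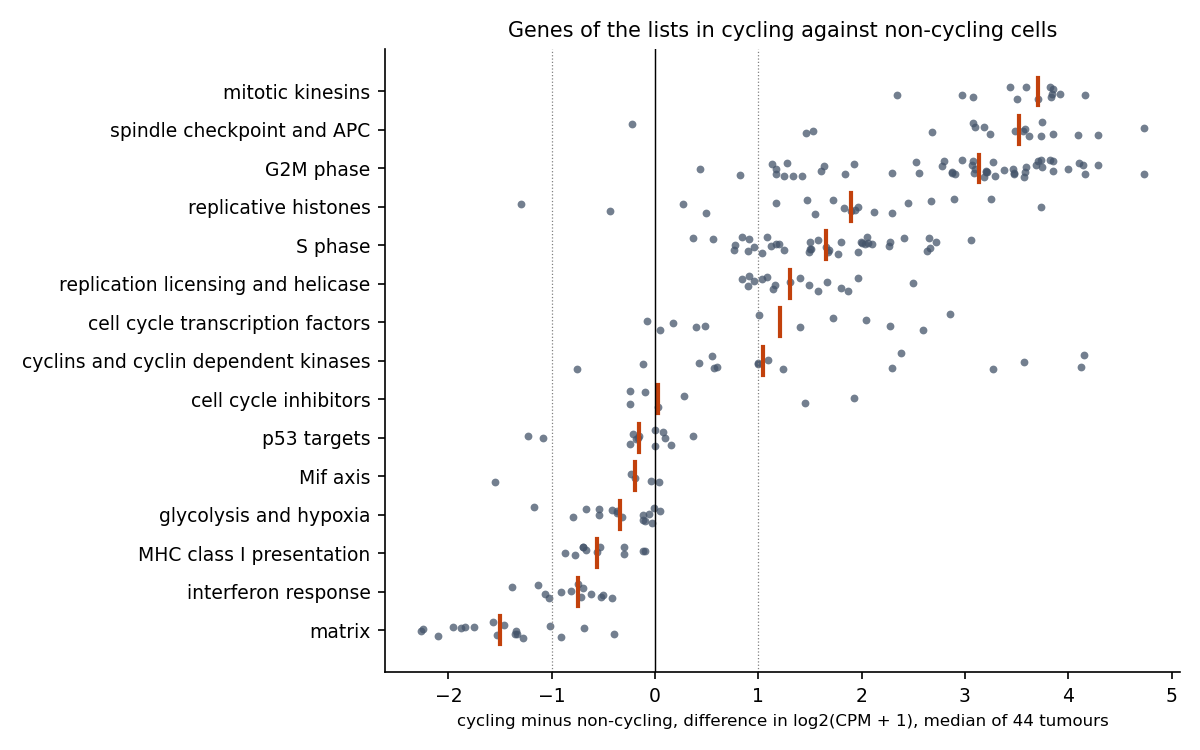
Each point is a gene of the list named on the left, and the horizontal axis is its level in cycling minus non-cycling cells as a difference in log2(CPM + 1), the median of 44 tumours. Red bars are list medians and dotted lines mark 2-fold. Kinesins have a median of 3.71 and matrix genes of -1.50.

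How many cells were cycling differed between the groups at day 0. In the raw gate, 56.7%, 43.6% and 35.2% of non-immune cells were cycling in the control tumours 15 A, 15 B and 18 A. In the KO tumours 19 A, 19 B, 24 A and 24 B, 5.84%, 10.4%, 7.68% and 7.11% were. The lowest value rests on 8 of 137 cells (exact 95% interval 2.55% to 11.2%, counting error only). The groups did not overlap. Day 0 samples were nearly pure, with 95.5% to 99.5% non-immune cells, against 38.6% to 89.4% later.

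Depth differed too, so each cell was thinned to 3000 UMIs and counted as cycling with 2 or more UMIs of Mki67 and Top2a. This left out 16358 shallower cells, 20.6% of the control and 21.6% of the KO cells. The loss was uneven between tumours, since line 15 day 0 A kept 675 of 709 cells and line 24 day 16 B kept 1922 of 3992. The first read 56.7% in the raw gate and 28.4% thinned, the second 11.4% and 21.3%. Cycling cells are the deeper ones, and the part of this loss in the thinned shares was not tested. At day 0 the thinned shares were 28.4%, 24.9% and 31.7% in control and 3.97%, 7.55%, 6.94% and 6.88% in KO. The means were 28.3% ± 3.39 (SD, n = 3) and 6.33% ± 1.61 (SD, n = 4), a difference of -22.0 percentage points (exact two-sided permutation p = 0.0286, the smallest this design allows; 0.114 adjusted over 4 days). Ube2c and Aurkb, which the gate did not use, also separated the groups. The share of cells with a UMI of either at 3000 UMIs was 46.5%, 49.0% and 55.9% in control and 9.25% to 13.5% in KO. Free RNA can place UMIs in cells that do not express a gene. Granulocytes, which do not divide, were too few to measure this, with 2 of 17 cells in the thinned gate (11.8%, exact interval 1.46% to 36.4%, median depth 6939 UMIs against 8021). Median depth of the non-immune cells at day 0 was 19680, 16225 and 9145.5 UMIs in control and 11592, 11821, 6700.5 and 6067 in KO.

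After day 0 the groups overlapped. At day 6 the thinned share was 21.2% ± 6.05 (SD, n = 6) in control and 19.6% ± 3.19 (n = 5) in KO. It was 14.7% ± 5.06 and 16.98% ± 2.89 (n = 6 each) at day 10, and 17.3% ± 3.70 and 17.4% ± 3.72 (n = 6 each) at day 16. None of these differences passed (-1.67, 2.23 and 0.04 points, exact permutation p = 0.621, 0.342 and 0.994). By line, control line 15 ran from 8.77% to 17.7% after day 0 and control line 18 from 16.6% to 31.6%; KO lines 19 and 24 ran from 12.9% to 20.6% and from 15.4% to 24.3%.

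Over all 42 tumours the KO share minus the control share was -3.40 points, which did not pass (permutation within day, 100000 resamples, p = 0.0762), and over the 4 line means it was -3.68 (exact permutation p = 0.667). It passed without line 15 (-6.15, permutation p = 0.00208) and without line 24 (-5.07, permutation p = 0.0355), but was -0.488 without line 18 (permutation p = 0.833), -1.89 without line 19 (permutation p = 0.453) and 0.261 over days 6 to 16 alone. Over tumours, the change from day 0 differed between the groups in thinned shares, by a test added after the shares had been seen. That test largely restates the day 0 gap. KO minus control was -22.0 points at day 0, and -1.67, 2.23 and 0.04 at days 6, 10 and 16 over all libraries. On its own the day 0 gap did not pass after adjustment (exact permutation, adjusted p = 0.114). In the libraries of single lines, the change from day 0 to day 16, taken within lines, was -12.6 points in control and 11.3 points in KO, and neither passed alone (exact permutation p = 0.0556 each, the smallest possible). The test between the groups used group means in place of changes within lines, and its day 0 samples are shared between the 3 tests. Its units are tumours of 2 lines a group, each line in its own library, so line, library and genotype cannot be told apart. KO minus control was higher than at day 0 by 22.8 points at day 16 (exact permutation within day, p = 0.0114, adjusted 0.0171), by 21.1 at day 6 (p = 0.0286, adjusted 0.0286) and by 23.5 at day 10 (p = 0.00857, adjusted 0.0171). Without line 15 the day 16 value was no longer past the threshold (exact permutation p = 0.173), nor was it without line 24 (exact permutation p = 0.1), both with fewer tumours.

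**Figure D2:**
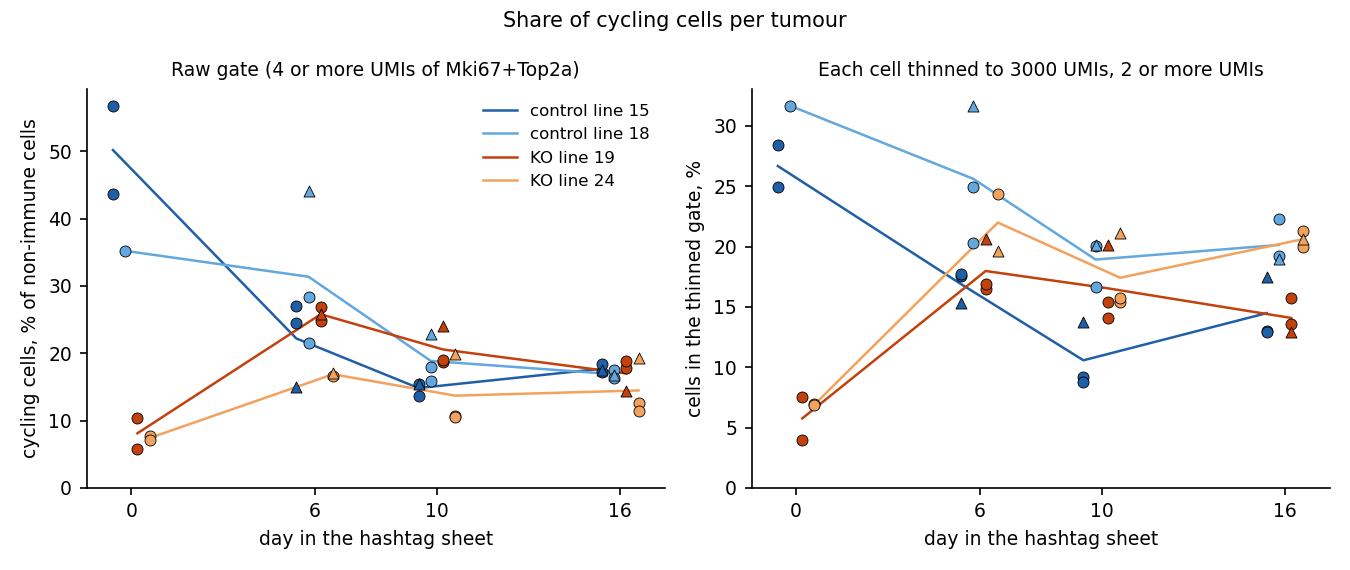
Cycling cells as a percentage of non-immune cells in each tumour (points; circles, library of a single line; triangles, library of mixed lines) against day, with lines through the means of each line; points of 1 day are set apart sideways. The left panel shows the raw gate and the right panel cells thinned to 3000 UMIs. At day 0 control tumours lie between 24.9% and 31.7% in the right panel and KO tumours between 3.97% and 7.55%.

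The balance of replication to mitotic RNA within cycling cells did not overlap between the groups at day 0. It was measured as the log2 ratio of UMIs of 43 S genes to UMIs of 52 G2/M genes, with Mki67 and Top2a in neither, summed over the cycling cells of a tumour. At day 0 it was -1.18, -1.31 and -1.31 in control and -2.12, -1.98 and -1.74 in KO, where 19 A had too few cells. The groups did not overlap, and all 3 KO tumours lay further towards G2/M. The difference was -0.68 (-1.27 ± 0.08 and -1.95 ± 0.19, SD, n = 3 each; exact permutation p = 0.1, the smallest possible). With the gate at 3000 UMIs in every cell, an alternative added after seeing the data, the means were -1.49 ± 0.06 and -2.04 ± 0.15.

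Later the groups overlapped. The balance was -1.72 ± 0.17 in control and -1.64 ± 0.17 in KO at day 6, -1.79 ± 0.11 and -1.80 ± 0.10 at day 10, and -1.80 ± 0.11 and -1.86 ± 0.15 at day 16. Within lines, control changed by -0.55 from day 0 to day 16 and KO by 0.02 (exact permutation p = 0.0556 and 0.833). By group means, KO minus control was higher than at day 0 by 0.59 at day 16 (exact permutation p = 0.0857), by 0.70 at day 6 and by 0.69 at day 10 (p = 0.0443 and 0.0429, both adjusted 0.0664), so none passed after adjustment. Over all days the group difference was -0.10 (permutation p = 0.101; over 4 line means, exact p = 0.667). It passed without line 18 (-0.19, permutation p = 0.014) and without line 19 (-0.19, permutation p = 0.00571), but was near 0 without line 15 (permutation p = 0.999) and -0.02 without line 24 (permutation p = 0.773).

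**Figure D3:**
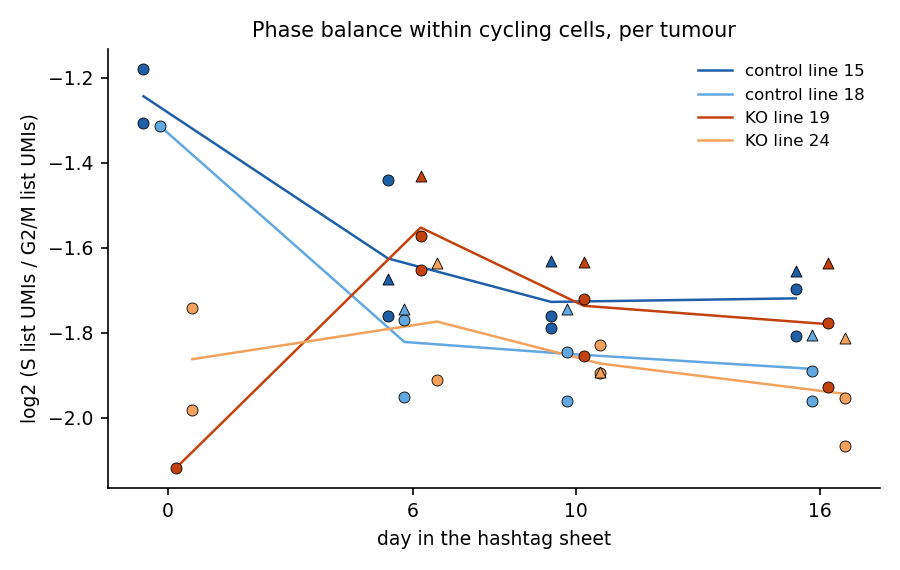
Log2 ratio of S list to G2/M list UMIs in the cycling cells of each tumour (points; circles, library of a single line; triangles, mixed lines) against day, with lines through the means of each line; points of 1 day are set apart sideways. Higher means more S phase RNA. The 3 control tumours of day 0 lie between -1.31 and -1.18, above the 3 KO tumours of that day, which lie between -2.12 and -1.74.

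Gene by gene, KO and control cycling cells were compared on UMI sums per tumour (21 control, 20 KO), with day as a term, in edgeR's quasi-likelihood test with Benjamini-Hochberg adjustment over 11261 genes and a threshold of 0.05. It called 38.2% of genes, 20.2% higher and 18% lower in KO. These tumours come from 2 lines a group. With 1 sum per line, 0 genes passed in edgeR (778 at an unadjusted p under 0.05), whereas DESeq2 over tumours called 4521. The calls below therefore separate these 4 lines, and line and genotype cannot be told apart. Cells were taken by the raw gate, no fit was run at 1 depth, and the part of depth was not tested. Values are log2 KO over control.

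Replication genes were called lower more often than higher. Of 19 licensing and helicase genes 10 fell and 0 rose (median -0.17, all genes 0.00), among them the helicase subunits Mcm6 (-0.35, SE 0.07, adjusted p = 5.36e-05), Mcm3 (-0.26), Mcm5 (-0.36) and Mcm4 (-0.17). Of 43 S genes 16 fell, such as Rrm1 of ribonucleotide reductase (-0.24), and 3 rose (median -0.14). The share lower in licensing genes is above the 18% background, and that in S genes is, too. Of 52 G2/M genes 11 fell, near that background, and 2 rose (median -0.04), below the 20.2% higher over all genes. The called share of this list is thus below the 38.2% of all genes. Single lines weighed on these counts. Without line 15, 4 S genes and 2 licensing genes fell, with 25.1% of all genes called, and in the single-line libraries alone 10 S genes fell and 3 rose, below the 34.9% called over all genes, and 8 licensing genes fell. In the mixed libraries alone, where 1.08% of all genes were called, 0 of either list passed. For the G2/M list, 21 fell and 1 rose without line 24 (34.5% of all genes called), and 4 fell and 16 rose without line 19, below the 47.9% called over all genes, so the direction of most calls in that list turned with the line left out. The counts also differed by day. At day 0 alone, where the phase balance was lower in KO, 13 S genes and 5 licensing genes fell with 11.1% of all genes called. Over days 6 to 16 alone 6 S genes fell and 3 rose, a share below the 35.6% called over all genes, and 8 licensing genes fell. With library as a further term 2 S genes fell and 1 rose, and 3 licensing genes fell, with 8.11% of all genes called. In that fit the group difference rests on the mixed libraries, since each other library holds 1 group. Among the cyclins and their kinases, 8 of 17 fell and 2 rose, with Ccna2 (-0.39, SE 0.07, adjusted p = 1.18e-05), Cdk1 (-0.21) and Ccnb1 (-0.27) lower and Ccnd2 (0.27) higher. At day 0 alone Ccnb1 stood at 0.21 and Ccnd2 at -0.08, so these directions are not those of every day.

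Plk1, the kinase that drives mitotic entry and exit, had the smallest p of the mitotic genes. Its level was 82.5, 101 and 114 CPM in control and 57.4, 68.3 and 104 in KO tumours. Of the 20 KO tumours 2, both of day 0, lay within the control range, and 8 of 21 control tumours lay above every KO tumour. At day 0 control read 103.6, 106.5 and 111.9 CPM of Plk1 and KO 93.1, 103.7 and 74.0. Plk1 fell by 0.52 (SE 0.04, adjusted p = 1.52e-11). It was called in 16 of 18 alternatives. Of the 18 spindle checkpoint genes 5 fell, with the gene for survivin, Birc5 (-0.21), and Aurkb (-0.27), and 1 rose, Ube2s (0.12), a called share below the 38.2% of all genes. Of 13 kinesins 6 fell, among them Kif20a (-0.40), Kif20b (-0.22) and Kifc1 (-0.25), and Kif23 rose (0.34). Ube2s and Kif20b turned direction at day 0 alone (-0.01 and 0.10), and Kif23 without line 24 (-0.06). The kinesin list turned as well, with 4 higher and 2 lower without line 19 (median 0.06), near the 47.9% called over all genes. At day 0 alone 3 kinesins were higher and 0 lower (0.29), with 11.1% of all genes called. The spindle checkpoint list had 4 higher and 3 lower without line 19, a share below that 47.9%.

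Some named regulators of the cycle were lower in KO and others higher. Of 7 inhibitor genes tested, Cdkn2d (-0.40, SE 0.07, adjusted p = 1.51e-05) and Cdkn2c (-0.25) fell and none rose, a called share below that of all genes; Cdkn1c, Cdkn2a and Cdkn2b were too low to test. At day 0 alone Cdkn2c stood at 0.17. Of 13 transcription factor genes 5 fell, among them Tfdp1, the E2F partner (-0.23), E2f4 (-0.28) and Foxm1 (-0.24). Myc alone rose, from 46.2, 72.0 and 150 CPM in control to 64.1, 108 and 182 in KO (0.64, SE 0.11, adjusted p = 1.94e-05), with 4 of 20 KO tumours above every control. Of 15 p53 targets 8 rose and 1 fell (median 0.21), against 5 and 4 without line 24 (-0.02; 34.5% of all genes called) and 4 and 1 without line 18, below the 36.3% called over all genes. Btg2, which slows cell division, was at 16.8, 48.0 and 78.0 CPM in control and at 14.3, 83.9 and 222 in KO (1.14, SE 0.20, adjusted p = 2e-05), and 11 of 20 KO tumours lay above every control. The targets Phlda3 and Ccng1 (each 0.21) turned to -0.18 at day 0 alone.

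The largest differences were outside the cycle genes. S100a16, a calcium binding protein, was at 0, 7.20 and 21.2 CPM in control and at 27.5, 62.4 and 105 in KO, with no overlap (2.88, SE 0.13, adjusted p = 4.75e-20). Cbr2, a carbonyl reductase, was at 3.70, 11.02 and 20.4 CPM and at 23.5, 44.1 and 115, again with no overlap (2.26, SE 0.15, adjusted p = 1.6e-14). The naming rule asked for KO line means on 1 side of both control line means, so separation was partly selected for. The share of all genes without overlap was not counted. S100a16, Cbr2 and Akr1c18 also passed in the mixed libraries alone, and the other 7 of the 10 genes named here did not. Ogn (3.05) and Egln3, an oxygen-sensing hydroxylase (2.30), were higher in KO with overlap, with 13 and 17 of 20 KO tumours above every control. Over the alternatives Ogn ran from 1.204 to 4.38 and Egln3 from 1.25 to 2.99. Cd74, the invariant chain and Mif receptor, was at 1.63, 15.2 and 94.3 CPM and at 11.5, 33.0 and 528 (2.24, SE 0.43, adjusted p = 8.35e-05). Its high values were those of line 24 at day 16 (460, 528 and 253 CPM), and without line 24 Cd74 stood at 0.57 (adjusted p = 0.150).

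Among the genes lower in KO, Akr1c18, a hydroxysteroid dehydrogenase, was at 25.8, 50.5 and 125 CPM in control and at 0, 5.16 and 34.8 in KO (-2.30, SE 0.32, adjusted p = 5.47e-07). Tmem98 was at 20.5, 31.1 and 37.8 CPM and at 0.677, 8.51 and 23.7 (-1.91, SE 0.32, adjusted p = 1.34e-05), lowest in line 19. Sprr1a, a cornified envelope precursor (-2.53), and Tnn, a tenascin (-2.07), were lower with overlap, and both were lost with library as a further term. Over the alternatives Sprr1a ran from -6.14 to -0.899, Tnn from -2.75 to -1.17, Akr1c18 from -3.555 to -1.16 and Tmem98 from -3.51 to -0.74, the last without line 19. Egln3, Akr1c18 and Tmem98 did not pass at day 0 alone.

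Genes of antigen presentation were higher in KO cycling cells. Of 11 genes of MHC class I presentation 10 rose (median 1.03), among them B2m (0.57), H2-D1 (0.75), H2-K1 (1.15) and the immunoproteasome subunit Psmb8 (1.32, SE 0.25, adjusted p = 5.49e-05); H2-D1 and H2-K1 belong to a family of similar genes whose reads may be split. Psmb8 was at 19.2, 48.2 and 162 CPM in control and at 42.7, 118.6 and 383 in KO, which overlap. Of 13 interferon response genes 7 rose and 0 fell (median 0.68), among them Bst2 (0.82), Isg15 (0.80) and Irf1 (0.80; -0.45 at day 0 alone). Both counts depended on line 24: without it 0 genes of either list passed in edgeR and the medians were 0.15 and 0.07. Interferon genes that rose were 3 without line 15 and 4 without line 18, shares below the 25.1% and 36.3% called over all genes, and 12 without line 19 (47.9%). With library as a further term, which again rests on the mixed libraries, 2 MHC class I genes and 0 interferon genes passed, with 8.11% of all genes called. In the mixed libraries alone 0 genes of either list passed, with medians of 1.001 and 0.81, and in the single-line libraries 10 and 5 rose, the latter near the 34.9% called over all genes. Non-cycling KO cells showed these rises too, with 41.5% of all genes called. There 11 of 11 MHC class I genes rose (median 0.91), and 6 of 13 interferon genes (0.44). In the test between states described below, 0 of 11 and 1 of 13 passed, so the rises were not particular to cycling cells. In cycling cells T cell genes summed to less in KO and endothelial genes to more, as given above, and the 2 endothelial genes tested both rose (median 1.23). The endothelial sum had a median of 46.9 CPM in KO and 15.3 in control at day 0, and of 21.5 and 10.3 at day 16. The part of T cells and endothelial cells in the differences above was not tested. Of 18 matrix genes 6 rose and 3 fell, with fibronectin, Fn1 (0.90, SE 0.10, adjusted p = 7.37e-09), higher. Of 16 glycolysis and hypoxia genes 3 rose, Hk2 (0.94), Egln3 and Vegfa (0.80), and Pgam1 fell (-0.53), a called share below the 38.2% of all genes. The glycolysis list turned at day 0 alone, with 1 higher and 8 lower (median -0.71; 11.1% of all genes called). It had 4 higher and 6 lower without line 19 (47.9% of all genes called).

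**Figure D4:**
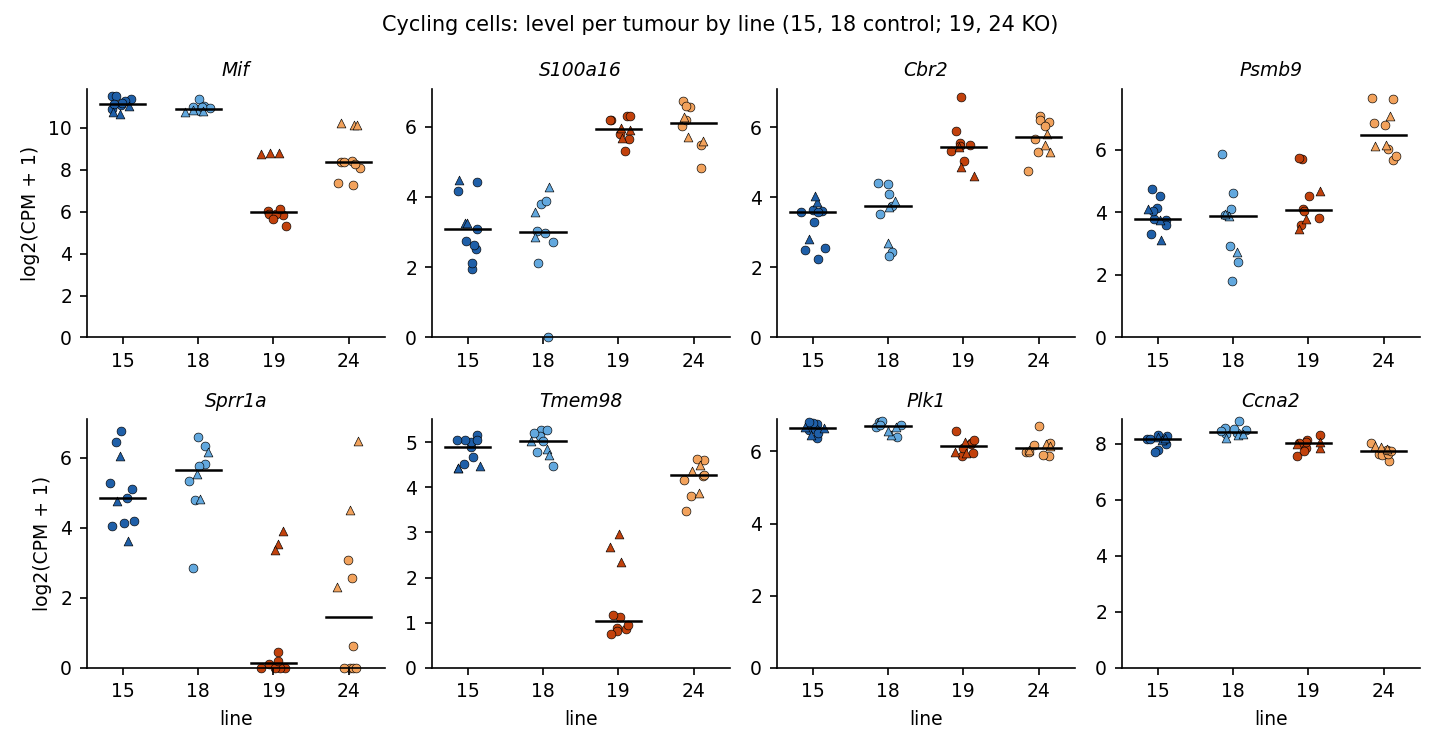
Level in cycling cells per tumour as log2(CPM + 1) for 8 genes, by line (15 and 18 control, 19 and 24 KO; circles, library of a single line; triangles, mixed lines; bars, medians). S100a16 and Cbr2 do not overlap between the groups, and the triangles of Mif in lines 19 and 24 lie above the circles of those lines.

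Whether these differences were particular to cycling cells was tested by comparing the KO difference between cycling and non-cycling cells of the same tumour. Of 13074 genes 2.69% passed, 1.58% with a higher and 1.11% with a lower difference in cycling cells. Which direction held more calls depended on the choices: 58.8% of the called genes were higher here, against 41.6% at a gate of 2 UMIs, 36.9% with stricter cell filters, 36.5% with a hashtag ratio of 5 and 35.9% over days 6 to 16. Without line 18 it was 41.4% and without line 24 81.7%. No S gene of 43 passed, and 1 of 52 G2/M genes did (Tmpo, -0.40). Il11, a cytokine, differed most clearly (1.80, SE 0.18, adjusted p = 2.69e-09) and passed in all 14 alternatives. In cycling cells Il11 was at 5.93, 22.2 and 46.1 CPM in control and at 6.17, 24.2 and 124.6 in KO (0.50, adjusted p = 0.0901). In non-cycling cells Il11 was at 14.3, 72.9 and 208 CPM in control and at 3.87, 26.3 and 95.3 in KO (-1.52, adjusted p = 7.06e-05). The groups overlapped in both kinds of cell, and KO passed as lower in the non-cycling ones.

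Fasn, the fatty acid synthase, showed the opposite sign of term (-0.48, SE 0.10, adjusted p = 0.00386). It was at 48.0, 55.6 and 82.7 CPM in control and at 65.2, 79.1 and 94.4 in KO cycling cells, and at 28.4, 43.7 and 57.0 against 50.4, 83.4 and 157 in non-cycling cells. KO was higher in both, by 0.41 and 0.94 for Fasn on the log2 scale. The term of Fasn did not pass without line 15 (-0.38), without line 24 (-0.18) or in the mixed or the single-line libraries alone. The other genes with a higher term were the metalloproteinase Mmp3 (2.15), which was at 0 in some tumours, the opioid precursor Penk (1.25), the chemokine Cxcl2 (1.12) and Igfbp4 (1.06). The others with a lower term were Fam83d, a spindle protein (-1.11), Prex2 (-0.49), Olfml3 (-0.45) and Aspa (-0.45). Each of these 8 was lost without at least 1 line: Mmp3 without line 15, 18 or 24 (0.50 without line 24), Penk without line 19, Cxcl2 without line 24, and Igfbp4 without line 18 or 24. Fam83d was lost without line 15, Prex2 and Olfml3 without line 15 or 24 (-0.26 and -0.23 without line 24), and Aspa without line 15 or 19 (-0.21 without line 19). The number of genes passing was 26 in the mixed libraries alone and 111 in the single-line libraries alone, and leaving out 1 line gave 102 to 665.

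The named genes that rose from day 0 to day 16 were mostly matrix genes, and those that fell included stress response genes. This was tested within lines in the 29 tumours of single-line libraries, and 36.8% of 11267 genes passed, 19.6% higher and 17.2% lower at day 16. Without line 15 the number of genes passing was 2640, against 4146. Crabp1, a retinoic acid carrier, was at 7.99, 5.39 and 3.73 CPM in control and 0.824, 3.70 and 5.29 in KO at day 0. At day 16 Crabp1 was at 606, 199.5, 252.4 and 136 CPM in control and 2.83, 25.7, 85.2 and 86.1 in KO (5.58, SE 0.71, adjusted p = 3.35e-07). Control tumours were the higher ones at day 16, and 19 A the lowest. Dcn, encoding the proteoglycan decorin and a fibroblast marker (5.57), Fbln2, a fibulin (4.72), and the chemokine Ccl2 (4.29) rose too. Tenascin C, Tnc, rose (4.59), but not without line 15 (2.55, adjusted p = 0.141). Of 18 matrix genes 14 rose and 1 fell in control, and 11 rose and 2 fell in KO (medians 2.94 and 1.66). Fibroblast markers in control cycling cells summed to a median of 14.8 CPM at day 0 and 280 at day 16, and in KO to 35.8 and 212. Macrophage markers went from 13.01 to 52.7 CPM in control and from 19.75 to 26.8 in KO, and T cell markers from 2.05 to 16.8 and from 1.24 to 7.53. Of 5 macrophage genes tested 4 rose with day and 1 fell. The part of these cells was not tested. Few such cells in the gate and low levels in all cells cannot be told apart in these sums.

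The named genes were required to share 1 sign in all 4 lines. Among those that fell, Gpnmb, a transmembrane glycoprotein, was at 213, 199.3 and 172 CPM in control and 634, 409 and 327 in KO at day 0. At day 16 Gpnmb was at 50.1, 70.4, 35.3 and 50.8 CPM in control and 57.5, 68.0, 69.9 and 92.1 in KO (-2.23, SE 0.15, adjusted p = 4.05e-12). No tumour of day 16 reached a tumour of day 0. Gask1b (-2.98), Trib3 of the integrated stress response (-2.02), Gadd45a, a DNA damage response gene (-1.88), and the protease Prss23 (-1.83) fell as well.

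Most replication genes fell in control cells, and most did not pass in KO cells, while G2/M medians were alike. These fits and the group-by-day fit below used the raw gate. There the phase balance was -1.08 in cells with 4 UMIs of Mki67 and Top2a and -2.04 with 10 or more. Median depth of cycling cells went from 22889 UMIs at day 0 to 16225 at day 16 in line 15 A, and from 12859 to 8597 in line 24 B. No fit was run at 1 depth, and the part of depth was not tested. In control cells, where 40.4% of 11023 genes passed (21.1% rose and 19.3% fell), 27 of 43 S genes fell and 1 rose (median -0.33, all genes 0.01). Of 19 licensing genes 15 fell and 0 rose (-0.42), and of 52 G2/M genes 18 rose and 3 fell (0.16). All 4 inhibitors that passed rose, Cdkn2d (0.74), Cdkn2c (0.89), Cdkn1b (0.58) and Rbl1 (0.40), while Myc fell (-0.77). In KO cells, where 24.6% of 10784 genes passed (13.6% rose and 11% fell), 8 S genes rose and 2 fell (0.16), 2 licensing genes rose and 1 fell, and 9 G2/M genes rose and 4 fell (0.11). Ccnd2 fell in both, by 1.72 in control (adjusted p = 1.45e-08) and by 1.23 in KO (adjusted p = 6.47e-07).

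The difference between the groups in change was tested as a group-by-day term, added after the shares had been seen. Of 11450 genes 14.5% passed, 7.9% with a positive term (a day 16 against day 0 change higher in KO) and 6.57% with a negative one. Of 43 S genes 17 were positive and 0 negative (median 0.44, all genes -0.01), and of 19 licensing genes 6 and 0 (0.45). Of 52 G2/M genes 6 were positive and 4 negative (-0.12), near the background, with 12 and 0 at a gate of 2 UMIs (0.15), near the 20.6% called over all genes, and 3 and 9 without the filter on low counts (-0.15), above the 8.01% called over all genes. Of 20 histone genes 5 were positive and 0 negative, but 0 passed in edgeR without line 15, and 2 were positive and 3 negative without line 19. The S and licensing shares are above the background in this fit, and these 2 lists overlap in their Mcm and Cdc genes. Without line 15 the term was called for 313 genes in all (2.67%) and 8 S genes, and without line 18 for 1032 genes and 10 S genes. Without line 19, 6 S genes were positive and 1 negative, with 0 and 1 licensing genes, where 12.5% of all genes were called, so the S share is then near the background and the licensing share below it. Without line 24, 27 S genes and 11 licensing genes were positive (11.1% of all genes). Without line 15 or line 18, 1 licensing gene was positive in each case.

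Mcm5, a subunit of the helicase whose promoter is shown above, was at 133, 126 and 163 CPM in control and 44.5, 34.6 and 75.6 in KO at day 0. At day 16 Mcm5 was at 94.8, 91.4, 89.5 and 79.6 CPM in control and at 78.0, 84.2, 47.1 and 55.9 in KO. The day 0 gap narrowed (1.02, SE 0.23, adjusted p = 0.00307), but not past the threshold without line 19 (0.52, adjusted p = 0.189). Nasp, the chaperone that supplies histones to replication, was at 150.4, 149 and 163 CPM in control and 84.9, 65.4 and 79.3 in KO at day 0. At day 16 Nasp was at 104, 110.4, 90.3 and 97.8 CPM and at 102, 106, 111 and 95.4, and the groups overlapped (1.09, SE 0.17, adjusted p = 7.11e-05). Hells, a chromatin remodeller (0.81), the ribonucleotide reductase gene Rrm2 (0.80), Usp1, a deubiquitinase of DNA repair (0.36), and Mcm6 (0.45) were positive as well. In the licensing list Mcm4 (0.50) and Mcm7 (0.60) followed. Nasp and Hells passed without each line in turn, while Rrm2 did not pass without line 19, and Usp1, Mcm6, Mcm4 and Mcm7 did not pass without line 15, 18 or 19.

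Named genes of mitotic entry and the spindle had terms of both signs. Kif18a, the motor that trims spindle microtubules, was at 12.8, 15.5 and 14.9 CPM in control and 25.5, 38.3 and 42.8 in KO at day 0. At day 16 Kif18a was at 18.5, 22.4, 24.1 and 24.5 CPM and at 18.2, 17.3, 19.1 and 12.5 (-1.43, SE 0.28, adjusted p = 0.000697). KO was then mostly the lower group, with overlap. The term of Kif18a was not past the threshold without line 15 (-1.64). Cdc25b, a phosphatase that starts mitosis, was at 46.5, 55.5 and 48.5 CPM in control and 63.5, 91.3 and 84.0 in KO at day 0 (-1.13, SE 0.22, adjusted p = 0.000829). Without line 24 the term of Cdc25b was -0.56 and did not pass. Ube2c (-0.40), cyclin F, Ccnf (-0.85), Sgo2a, which guards cohesion (-0.71), and the inhibitor Cdkn1b (-0.90) were negative. Ccnd3 (0.75), Cdk6 (0.73), Tfdp1 (0.45) and Mybl2, encoding B-Myb (0.996), were positive, and so were Birc5 (0.41) and Anp32e (0.73). Of these 10 genes Ccnd3 and Anp32e passed without each line in turn, and each of the other 8 was lost without at least 1 line. Line 15 decided Cdk6 and Sgo2a and line 19 Cdkn1b, Ccnf was lost without 15 or 24, and Mybl2 without 15 or 19. Birc5 was lost without 18 or 19, Tfdp1 without 15, 18 or 19, and Ube2c when any 1 of the 4 lines was left out.

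**Figure D5:**
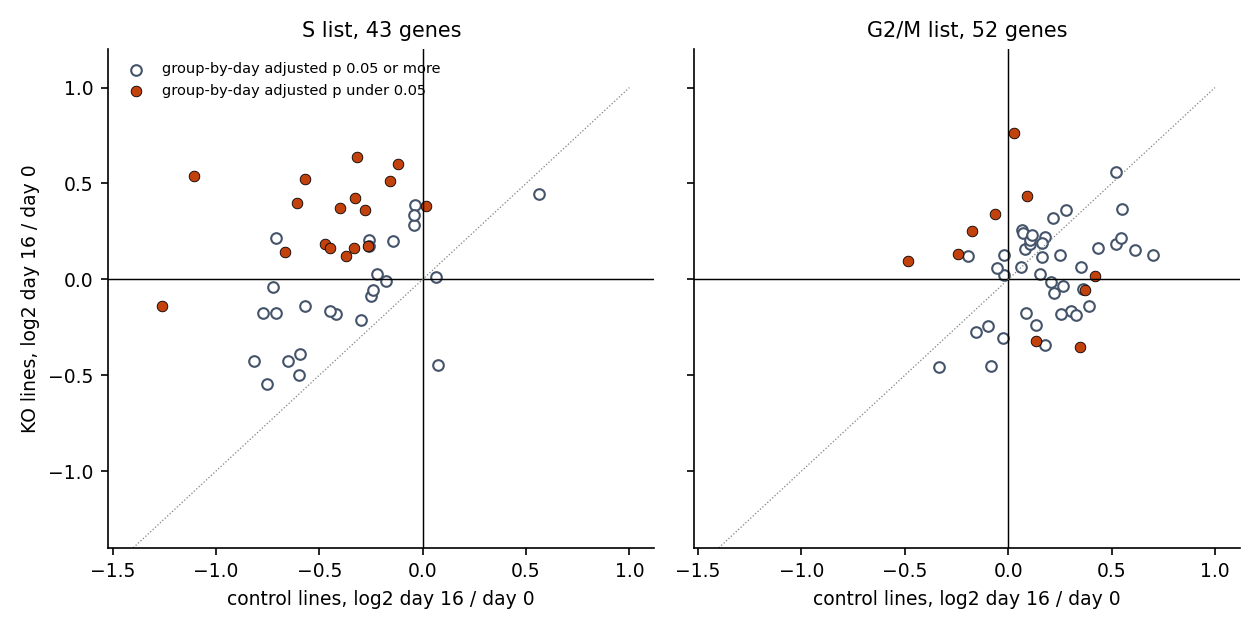
Log2 change from day 0 to day 16 in cycling cells of control lines (horizontal) and KO lines (vertical) for the 43 S genes (left) and 52 G2/M genes (right), with filled points where the group-by-day term has an adjusted p under 0.05. The dotted line marks equal change. All 17 filled S genes lie above it, and of the 10 filled G2/M genes 6 lie above and 4 below.

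Glycolysis genes were the other list with many positive terms, 11 of 16 positive and 0 negative (median 0.65; 5 without line 15, where 2.67% of all genes were called, and 9 to 13 without another line), and 15 of 16 rose in KO cells (0.97). Ldha, encoding lactate dehydrogenase, was at 3372, 3212 and 2947 CPM in control and 2123, 750.5 and 698 in KO at day 0. At day 16 Ldha was at 2801, 2671, 2595 and 2638 CPM and at 2543, 2782, 1935 and 1791 (1.31, SE 0.16, adjusted p = 2.21e-06). The low KO values of day 0 are the 2 of line 24, and line 19 lay nearer to control, with a term of 0.74 without line 24 and 1.74 without line 19. Eno1 (1.19; 0.55 without line 24 and 1.67 without line 19), Gapdh (0.57) and Pkm (0.52) were positive too, Gapdh and Pkm not without line 15. Mif counts rose in KO cells (1.01) and fell in control (-0.40), with a term of 1.42 (SE 0.14, adjusted p = 4.1e-07). The KO levels of Mif stayed far below control, as given above. The part of free RNA, wrong hashtags and pseudogene reads in this rise was not tested. Of 18 matrix genes 0 were positive and Fn1 was negative (-0.89).

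The largest single terms, named by the same rule as for day but without its sign condition, included Ccnb1ip1, a ubiquitin ligase of meiotic crossing over. It was at 53.2, 54.1 and 51.0 CPM in control and 4.53, 11.1 and 5.29 in KO at day 0. At day 16 Ccnb1ip1 was at 10.7, 12.0, 10.9 and 10.1 CPM and at 13.8, 13.5, 12.7 and 12.2 (3.42, SE 0.40, adjusted p = 1.28e-06). At day 16 the levels were nearly equal in these tumours of single-line libraries, with control at most 12.0 CPM and KO at least 12.2. Fabp5, a fatty acid carrier, was at 460, 423 and 518 CPM and at 136, 59.2 and 46.0 at day 0, and at 205, 208, 265 and 249 CPM and 220.4, 236.5, 121 and 113 at day 16 (2.19, SE 0.18, adjusted p = 5.56e-09). Gadd45g, a stress response gene (2.19), Id3, an inhibitor of differentiation (2.22), and the chemokine Cxcl10 (2.84) were the other positive ones. The negative ones were Mmp3 (-6.80), Ecrg4 (-4.92), the laminin receptor subunit Itga6 (-3.23), Cp (-2.57) and Hopx (-2.52). Itga6 was at 0.824 CPM in line 19 and at 60.5 and 113 in line 24 at day 0, so its KO value of that day differs by line, and its term was 0.48 without line 24. Ccnb1ip1, Fabp5 and Gadd45g passed without each line in turn. Cxcl10 and Id3 were lost without line 15 and without line 24, and all 5 negative genes without line 15. Mmp3 was lost without line 24 too (-0.20), and Ecrg4 without line 19. Without line 15 a single control tumour of day 0 remains, and Ecrg4 (-8.405), Mmp3 (-6.915) and Id3 (2.78) then stood further from 0 than with it, while Cxcl10 (1.05), Itga6 (-2.02), Cp (-1.79) and Hopx (-1.01) stood nearer.

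The 3 WT tumours, of days 6, 10 and 16, came from the mixed libraries and are given as single values. Their thinned shares were 19.9%, 21.2% and 17.9%, and their phase balance was -1.76, -1.87 and -1.94, within the range of the lines after day 0. Mif was at 2270, 2278 and 2055 CPM in their cycling cells and Plk1 at 84.5, 85.4 and 97.1, both inside the control range. The Plk1 values were inside the KO range as well. S100a16 was at 13.3, 20.02 and 34.8 CPM and Cbr2 at 19.9, 28.03 and 34.8, which passes the control range in 1 and in 2 of the 3 tumours. The values past the control range lie inside the KO range of each gene given above.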

How the data were processed

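Per the labels' protocols, dissociated tumours were hashed, live cells were sorted, and a 10x 5′ kit was used. The authors deposited raw UMI counts for each gene and barcode in 6 matrices, and a sheet of hashtags. The submitters' processing notes name Cell Ranger 6.0.0 and mm10. Other counting settings were not given. Members and lists were chosen with earlier results of these data known.

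Cells were chosen as the report says; no doublet caller was run, so doublets within a hashtag remain. Cycling cells' raw counts were summed per tumour with at least 20 such cells. Groups were compared in edgeR 4.0.16 (filterByExpr, TMM, glmQLFit, glmQLFTest; R 4.3.3), with day as a term, days with line as a term, and states with tumour as a block. Standard errors are the log2 fold change over the root of its F statistic. Shares and phase balance were tested by permutation over tumours (exact, or 100000 resamples; scipy 1.17.1). DESeq2 1.42.0 was an alternative. Named genes are the list members that passed, highest level first and at most 4 a list, and the 5 largest changes each way (10 for cycling against non-cycling) with a mean log2 CPM of at least 4. KO line means had to lie on 1 side of both control line means, days to share 1 sign over lines, and tumours to share 1 sign for cycling against non-cycling. Nasp in the group-by-day test, Ccnd2 between days in control, and Ccnd1, Ccnd2 and Hist1h2bc between states are beyond this rule and were chosen after their values were seen. Some genes that the rule names are not reported here. Group-by-day tests were added after the shares were seen. On simulated counts, 2-fold changes were recovered for 100% of changed genes between groups (11069 genes), 82% between days (11072 genes) and 85.9% in the test between states (12389 genes). False calls were 7.14%, 2.7% and 3.91% of the calls in these tests. The simulated tumours were independent and had no line effect, so these rates do not cover lines nested in groups. Total counts per library ran from 151385933 to 239699029 UMIs, and intervals cover counting error only. Of the 47 hashtags in the sheet, 2 had no assigned cells.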

Additional observations from a re-analysis of the deposited data

Results flagged for a closer look

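Over tumours, the change in the share of cycling cells from day 0 differed between the groups, by the tests of the difference itself described above. Lines are nested in the groups there, so line, library and genotype cannot be told apart. The KO minus control difference in thinned shares was higher by 22.8 percentage points at day 16, by 21.1 at day 6 and by 23.52 at day 10 than at day 0 (exact permutation within day, adjusted p = 0.0171, 0.0286 and 0.0171), and each uses the same 7 tumours of day 0. This test was added after the shares were seen, and it largely restates the day 0 gap of -22.0 points. On its own that gap did not pass after adjustment (exact permutation, adjusted p = 0.114). The day 16 value did not pass at 5000 UMIs (exact permutation p = 0.0514), with a hashtag ratio of 5 (p = 0.0529, exact), without line 15 (p = 0.173, exact) or without line 24 (p = 0.1, exact). The change in RNA level from day 0 to day 16 differed between the groups for 1657 genes in cycling cells (edgeR quasi-likelihood adjusted p under 0.05). One tumour stood apart from the others of its line in phase balance, line 18 A of day 0, at -1.313, the only day 0 tumour of that line (gap over range 0.6665). Chance alone marks about 1 in 20 such groups.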

How the results depend on the processing

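No paired analysis was possible between the groups by replicate number, because these numbers only name lines within a group. Tumour entered as a block between states, line as a term between days, and library as a term between groups in an alternative. For the share by group (-3.40 points), the value was -3.778 with a hashtag ratio of 5, -10.1 with Ube2c and Aurkb and -7.701 without thinning, all now past the threshold, it was 0.2608 over days 6 to 16, and it ranged from -6.148 to -0.488 without 1 line, past the threshold without line 15 or 24. The share by day (0.44) turned to -1.607, -4.556 and -8.099 under the hashtag ratio, Ube2c with Aurkb and no thinning, and ranged from -4.539 to 5.75 without 1 line. The group-by-day share was no longer past the threshold at 5000 UMIs (27.52) or with the hashtag ratio (21.95), and ranged from 20.38 to 25.22 without 1 line. Phase balance by day (-0.27) passed with the hashtag ratio (-0.3306) and the gate at 3000 UMIs (-0.2474), with -0.399 (past it, without line 19) to -0.1621 without 1 line. Phase balance by group was 0.03543 in mixed and -0.1592 in single-line libraries, the latter past the threshold, and -0.1858 to -5.12e-05 without 1 line, past it without line 18 or 19. Genes called between groups (4301) were 121 in mixed libraries alone, 1069 at day 0 alone, 946 with a library term, 0 with 1 sum per line, and 2882 to 5368 without 1 line. Those called between days (4146) were 2640 to 4024 without 1 line. Those of the test between states (352) were 681 with a gate of 2 UMIs, 26 in mixed and 111 in single-line libraries, and 102 to 665 without 1 line. Genes past 2-fold lower in cycling cells (243) were 116 at matched depth. The group-by-day genes (1657) were 313 to 1510 without 1 line, where Itga6 ran from -3.68 to 0.4774. At day 0 alone, with fewer samples, the group difference turned for Ccnb1 (0.2062), Ccnd2 (-0.0799), Cdkn2c (0.1676), Ube2s (-0.012), Kif20b (0.0963), Phlda3 (-0.1842), Ccng1 (-0.1827) and Irf1 (-0.4499). Without line 24 or line 19 it ran from -0.1447 to 0.6247 for Tipin (-0.047 with a library term), from -0.0594 to 0.7252 for Kif23 and from -0.5311 to 1.414 for Plk2. The cause was not tested. Precision at day 0 is limited by 3 control and 3 KO tumours with at least 20 cycling cells.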
